A study of Homo sapiens with 6 samples.

Results

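The 41 genes described here are interferon-stimulated genes, chosen by name from the deposited gene annotation, with the counts of all transcripts of a gene summed. They are 41 of 58735 genes in the table and hold 306 of its transcripts. RNA-seq was done on 6 libraries of cells labelled CCRF-SB, a cell line from B cell acute lymphoblastic leukaemia, given as lymphoblast-like and of peripheral blood origin. The 3 siANXA1 libraries came from cells infected with a lentiviral vector from Genechem carrying a silencing RNA against ANXA1, with the genotype label "ANXA1 down-regulated". The 3 siControl libraries came from cells given an empty vector, with the genotype label "WT". All cells grew in RPMI-1640 with 10% FBS, were selected with puromycin and carry the time label day 5. Whether the replicates were cultured separately is not in the labels, so the spread behind each p-value is that between these libraries and may be technical. The comparison asks what lower ANXA1, the gene of the phospholipid-binding protein annexin A1, goes with in these cells.

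Interferons are secreted antiviral proteins. Type I interferons bind the receptor of IFNAR1 and IFNAR2, whose kinases JAK1 and TYK2 phosphorylate STAT proteins, STAT2 among them. These join IRF9 and bind interferon-stimulated response elements in promoters, and the genes that follow block viral entry, sense foreign RNA, stop translation and tag proteins with ISG15. Blood cells use the same genes in antiviral defence, and some are transcribed without added interferon.

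The response element can be seen in members at opposite ends of the range of levels. Promoter windows, 250 bases before to 50 bases after a gene's start, were taken from RefSeq on GRCh38.p14 and matched 32 of the 41 genes, 1 of them under a newer symbol. IFITM2, IFIT2, MX2, OAS2, OASL, IRF7, USP18, TRIM22 and GBP2 were not matched. The core of the element was searched on both strands as GAAA, any 2 bases and GAAA again, and matches can overlap one another. The 30-base windows below are written 5′ to 3′ on the gene's strand, with the match in capitals. IFITM1, IFITM3, BST2 and ISG15 are shown because they are among the most abundant members, and IFIT1, IFI44L, IFIT5 and GBP1 because they had few counts or none. A match made of TTTC blocks is the element on the other strand.
IFITM1, chr11:313990-314019, plus strand: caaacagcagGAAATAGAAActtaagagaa
IFITM3, chr11:320876-320905, minus strand: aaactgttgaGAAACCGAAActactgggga
BST2, chr19:17405741-17405770, minus strand: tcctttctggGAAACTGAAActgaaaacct
ISG15, chr1:1013380-1013409, plus strand: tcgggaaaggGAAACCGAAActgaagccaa
IFIT1, chr10:89392510-89392539, plus strand: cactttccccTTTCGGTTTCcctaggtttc
IFI44L, chr1:78620365-78620394, plus strand: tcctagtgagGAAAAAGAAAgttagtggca
IFIT5, chr10:89414513-89414542, plus strand: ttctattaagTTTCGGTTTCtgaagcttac
GBP1, chr1:89065316-89065345, minus strand: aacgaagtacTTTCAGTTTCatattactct

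Of the 32 matched members, 23 (71.9%) held this core, against 1195 of all 27305 genes with a window (4.38%). The STAT site, a palindrome bound by STAT proteins, searched as TTCNNNGAA on both strands, was in 9 of 32 members (28.1%) and in 9.38% of all genes. It can overlap the response element, as in BST2. IRF1 had a match to the STAT site and none to the response element core.
IRF1, chr5:132490879-132490907, minus strand: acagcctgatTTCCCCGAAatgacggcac

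Counting only matches before the RefSeq start, 21 members had a match to the response element core and 11 had none. Of the 21 with it, 11 were under 1 TPM (counts divided by transcript length and scaled to the same total in every library) on average and 2 had no count in any library. Of the 11 without it, 4 were under 1 TPM and 1 had no count. Among tested members the median log2 fold change, siANXA1 over siControl, was -0.39 with a match (14 tested) and -0.40 without a match (9 tested). A match describes the letters of the window only. Variants of the core were not searched, so a member without a match may still have the element. The RefSeq start can differ from the starts of the transcripts counted here. Of the windows printed, those of ISG15, IFIT1 and IRF1 overlapped no annotated exon of GENCODE release 29. The other windows printed did overlap one. The IFITM1 window lies after position 313527, where its transcript ENST00000328221 starts.

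Library totals over rows with a gene were between 21333951 and 44148505 counts. ANXA1, at 9:73151757-73170393 on the plus strand, read 1606, 1723 and 1712 CPM (counts scaled to library size with TMM factors) in siANXA1 libraries, against 3696, 3696 and 3756 CPM in siControl libraries. All siANXA1 values lay below all siControl values, with a log2 fold change of -1.15 ± 0.093 (SE, n = 3 each). Its adjusted p was 0.0571 with edgeR's quasi-likelihood test and 1.41e-17 with DESeq2, and the exact two-sided permutation p was 0.1, the smallest that 3 against 3 allows. edgeR called 2 of 17947 genes tested, DESeq2 258.

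Of 19 B cell markers, those of the labelled cell type, 12 were too low to test, and VPREB1, IGLL1, IGHM and DNTT had no count. The 19 summed to 47.3, 113 and 48.2 CPM in siANXA1 libraries and 71.7, 102 and 54.8 CPM in siControl libraries. CD24, which other cell types also express, held most of this with a mean of 56.5 CPM, followed by RAG1 at 7.12 and MME at 4.80 CPM. Without CD24 the sums were 11.9, 17.3 and 13.95 CPM in siANXA1 libraries and 17.5, 22.8 and 14.9 CPM in siControl libraries. All 13 erythroid markers were tested, and their sum was 7163, 5818 and 6242 CPM in siANXA1 libraries, above the 2055, 3551 and 3220 CPM in siControl libraries. HBE1 alone read 3286, 2140 and 2973 CPM in siANXA1 libraries, against 4.74, 637 and 9.82 CPM in siControl libraries. In 4 of the 13 markers every siANXA1 library lay above every siControl library, beside 7.41% of all tested genes. Principal component 1 (39.9% of variance) set siANXA1 2, siControl 1 and siControl 2 apart from siANXA1 1, siANXA1 3 and siControl 3. The amino acid stress genes, 10 in all, followed that division, with sums of 819, 3315 and 796 CPM in siANXA1 libraries and 5303, 4994 and 1006 CPM in siControl libraries. The part of these differences in the results below was not tested. Fewer cells of a type and less RNA per cell cannot be told apart in bulk libraries.

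Per length, the members covered a wide range. IFITM1 averaged 591.3 TPM over the 6 libraries (466.6 to 802.2), BST2 averaged 278 TPM (254.8 to 295.0), IFITM3 averaged 165.3 TPM (120.8 to 238.3) and STAT2 averaged 51.9 TPM (36.5 to 65.4). The ranges of these 4 did not overlap one another. From STAT2 downwards every neighbouring pair overlapped: IFITM2 was next at 39.6 TPM, then ISG15 at 19.9, EIF2AK2 at 16.7, IFI35 at 14.8 and IRF9 at 10.7 TPM. IFITM1, BST2 and IFITM3 held 83.4% of the summed TPM of all members. A mean of at least 1 TPM was reached by 20 members, and 21 were under it.

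**Figure D1:**
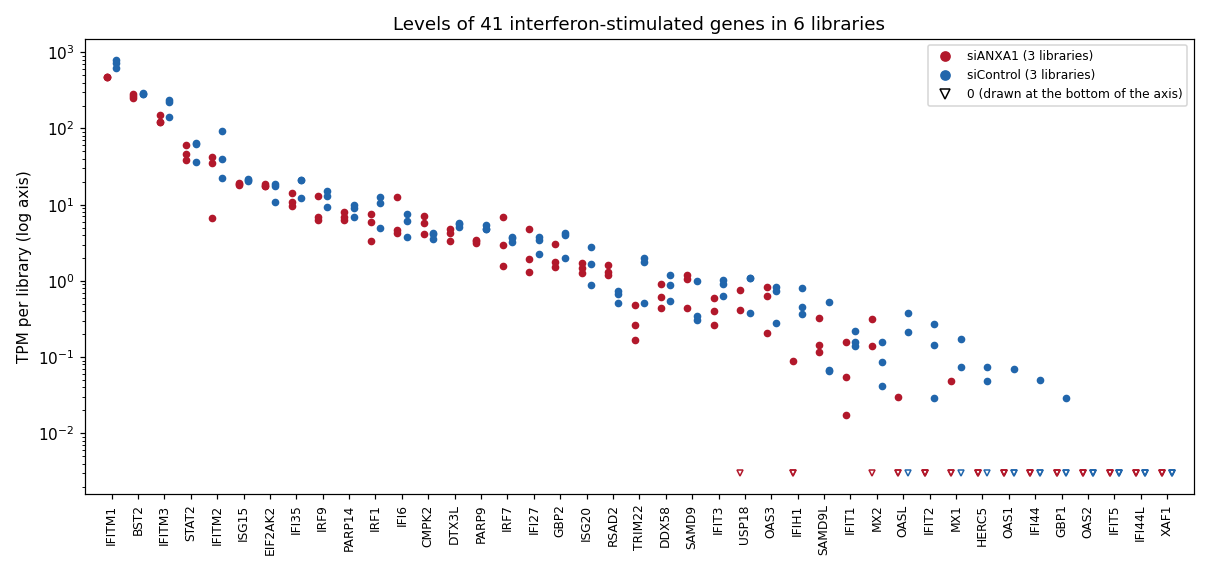
Level of each of the 41 interferon-stimulated genes in TPM, with a point per library and siANXA1 and siControl in separate colours. IFITM1 leads at 466.6 to 802.2 TPM, and 21 members average under 1 TPM.

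No member passed the edgeR threshold of an adjusted p under 0.05, against 0.0111% of all genes tested, and the lowest adjusted p was 0.592, for IFITM1. Of the 41 members, 28 passed the filter on low counts and 13 did not. At an unadjusted edgeR p under 0.05, 5 members (IFITM1, IFITM3, IRF1, IRF9 and IFIH1) were lower in siANXA1 and 0 higher, beside 4.52% lower and 3.4% higher (7.93% in all) among all genes. DESeq2 called 1 member lower, IFITM1, of the 26 with an adjusted p, and 0 higher, beside 0.775% lower and 0.663% higher among all genes. limma-voom called 0 members, beside 0.0167% of all genes, 0.00557% lower. The fitted log2 fold change was negative for 22 of the 28 and positive for 6, with 49.5% of all tested genes negative. The median was -0.43 (range -3.27 to 0.73), beside 0.01 over all genes; it was -0.63 with no filter. In 9 tested members every siANXA1 library lay below every siControl library and in 0 above, where 7.24% of all tested genes lay below and 7.41% above. A member such as IFIH1 that passed the filter through siControl alone had to lie below, so these counts and the median are descriptions of the tested members only.

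**Figure D2:**
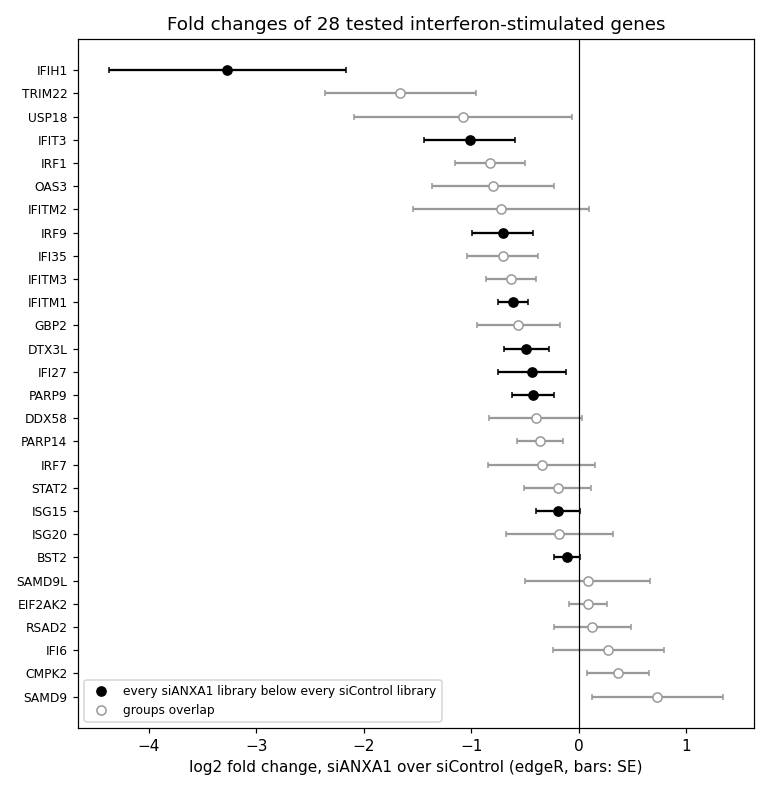
Fitted log2 fold changes (edgeR, siANXA1 over siControl) of the 28 tested members, with bars of 1 SE. 22 are negative, 6 positive, and none passed an adjusted p under 0.05.

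Among genes acting at viral entry and release, the IFITM proteins hinder fusion of viruses with cell membranes. IFITM1 (11:313506-315272, plus strand) read 231, 218.5 and 220.1 CPM in siANXA1 libraries, against 297, 383 and 342 CPM in siControl libraries. The groups did not overlap and the siANXA1 libraries lay within a narrow band, at 223 ± 6.81 against 341 ± 42.9 CPM in siControl libraries (SD, n = 3 each). The log2 fold change was -0.61 ± 0.14 (SE), with an adjusted p of 0.592 in edgeR and 0.035 in DESeq2. IFITM3 (11:319669-327537, minus strand) read 56.1, 53.5 and 66.5 CPM in siANXA1 libraries, against 109, 100.3 and 64.4 CPM in siControl libraries. siControl 3 lay among the siANXA1 values, and the log2 fold change was -0.63 ± 0.23 (edgeR adjusted p 0.627). IFITM2 (11:307631-315272, plus strand) read 17.2, 19.8 and 2.46 CPM in siANXA1 libraries, against 9.43, 38.1 and 17.5 CPM in siControl libraries, with wide overlap. IFITM1, IFITM2 and IFITM3 are similar in sequence and the first 2 overlap in the annotation, so how reads were divided among them is uncertain.

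BST2, or tetherin, holds budding virions at the cell surface. BST2 (19:17402939-17405648, minus strand) read 148, 159 and 149.7 CPM in siANXA1 libraries, against 168, 163 and 162 CPM in siControl libraries. The groups did not overlap, yet the distance was small, at 152 ± 5.68 against 164 ± 3.36 CPM in siControl libraries and a log2 fold change of -0.11 ± 0.12 (edgeR adjusted p 0.8002).

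**Figure D3:**
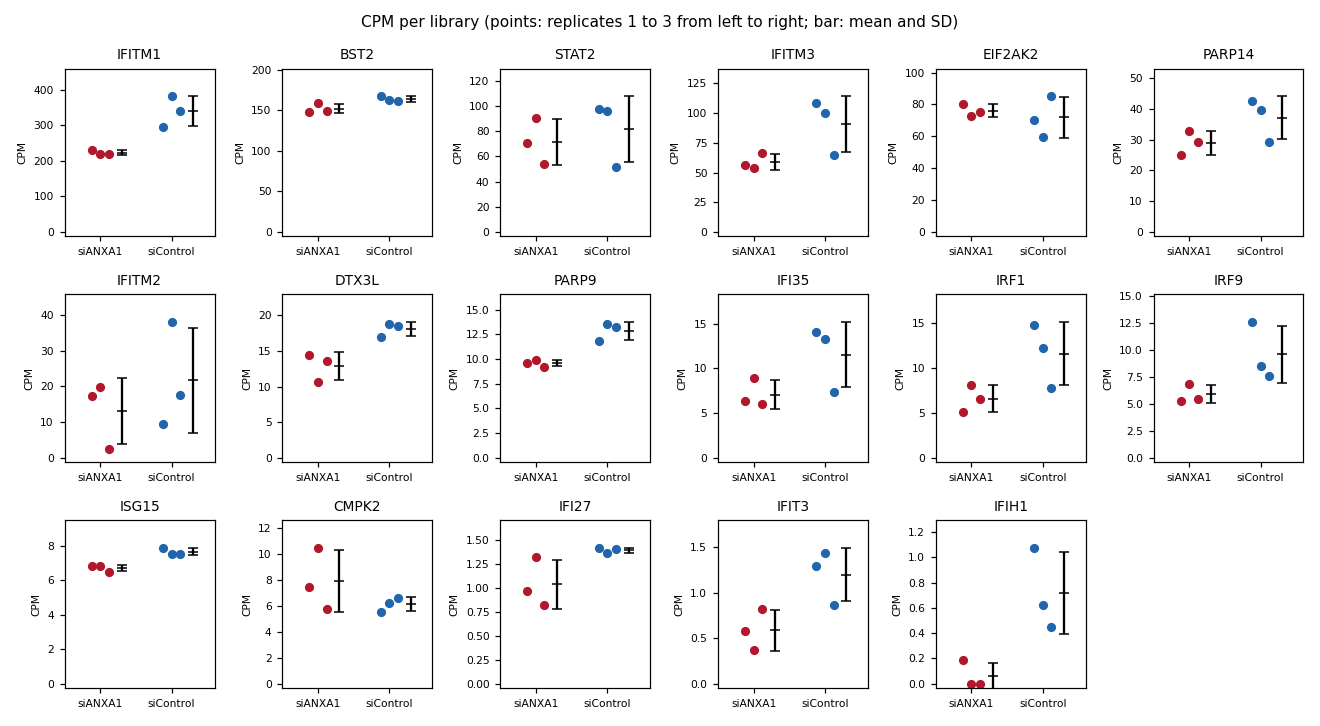
TMM-scaled CPM of members in each library, siANXA1 on the left and siControl on the right of each panel, with points for replicates 1 to 3 and bars for mean and SD. IFITM1 separates the groups with siANXA1 at 218.5 to 231 and siControl at 297 to 383 CPM, whereas STAT2 and EIF2AK2 overlap.

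The members that carry the signal or start transcription were all negative, and IRF9 alone did not overlap. STAT2, the partner of IRF9 (12:56341597-56360155, minus strand), read 70.7, 90.2 and 53.6 CPM in siANXA1 libraries, against 97.9, 96.1 and 51.5 CPM in siControl libraries. The libraries low in each group, siANXA1 3 and siControl 3, were alike, and the log2 fold change was -0.19 ± 0.31 (edgeR adjusted p 0.858), turning to 0.08 with the side of principal component 1 as a covariate. IRF9 (14:24161053-24166565, plus strand) read 5.31, 6.85 and 5.51 CPM in siANXA1 libraries, against 12.7, 8.58 and 7.64 CPM in siControl libraries, a log2 fold change of -0.71 ± 0.28 (edgeR adjusted p 0.627). IRF1, a transcription factor induced by interferon gamma (5:132481609-132490798, minus strand), read 5.11, 8.08 and 6.55 CPM in siANXA1 libraries, against 14.8, 12.3 and 7.79 CPM in siControl libraries. siANXA1 2 lay above siControl 3, and the log2 fold change was -0.82 ± 0.32 (edgeR adjusted p 0.627). IRF7, which drives type I interferon genes, read 1.08, 3.97 and 1.80 CPM in siANXA1 libraries and 3.06, 3.15 and 2.43 CPM in siControl libraries.

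Of 11 members that sense RNA or act on translation 5 were tested, 4 negative and 1 positive, with a median log2 fold change of -0.80. EIF2AK2, the kinase PKR that stops translation on double-stranded RNA (2:37099210-37157065, minus strand), read 80.4, 72.6 and 75.3 CPM in siANXA1 libraries, against 70.4, 59.8 and 85.4 CPM in siControl libraries. It was the positive member of the group, with overlapping values and a log2 fold change of 0.08 ± 0.18 (edgeR adjusted p 0.894), and -0.04 without siControl 2. IFIH1, the RNA sensor MDA5 (2:162267079-162318703, minus strand), had 8, 0 and 0 counts in siANXA1 libraries, against 45, 25 and 15 counts in siControl libraries. Its log2 fold change of -3.27 ± 1.1 rests on those few counts, and it passed the filter only through the siControl libraries (edgeR adjusted p 0.61). DDX58, the sensor RIG-I, read 1.56, 1.05 and 2.24 CPM in siANXA1 libraries and 2.20, 1.31 and 2.94 CPM in siControl libraries. OAS3, which makes the activator of RNase L, read 0.276, 0.776 and 0.792 CPM in siANXA1 libraries and 1.53, 1.07 and 0.569 CPM in siControl libraries. IFIT3, of the family that binds foreign RNA (10:89327894-89340971, plus strand), read 0.575, 0.365 and 0.819 CPM in siANXA1 libraries, against 1.29, 1.44 and 0.869 CPM in siControl libraries, and did not overlap.

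ISG15 is a ubiquitin-like protein joined to other proteins. ISG15 (1:1001138-1014540, plus strand) read 6.83, 6.81 and 6.50 CPM in siANXA1 libraries, against 7.90, 7.52 and 7.55 CPM in siControl libraries. These groups did not overlap although the log2 fold change was only -0.19 ± 0.20 (edgeR adjusted p 0.799). USP18, which removes ISG15, read 0.506, 0 and 0.901 CPM in siANXA1 libraries and 1.32, 1.31 and 0.449 CPM in siControl libraries.

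PARP9 and DTX3L form a ubiquitin ligase, and PARP14 is a related ADP-ribosyltransferase, all on chromosome 3. PARP9 (3:122527924-122564577, minus strand) read 9.59, 9.87 and 9.23 CPM in siANXA1 libraries, against 11.8, 13.5 and 13.3 CPM in siControl libraries. DTX3L (3:122564238-122575203, plus strand) read 14.4, 10.6 and 13.6 CPM in siANXA1 libraries, against 16.9, 18.8 and 18.5 CPM in siControl libraries. Neither pair of groups overlapped, and the log2 fold changes were -0.43 ± 0.19 for PARP9 (edgeR adjusted p 0.641) and -0.49 ± 0.21 for DTX3L (edgeR adjusted p 0.627). The 2 genes overlap on opposite strands, and with the strand setting not given in the sources used here their reads cannot be told apart there. The main transcript of PARP9, ENST00000462315, held 66.9% of its counts and overlapped between groups. It read 7.57, 7.78 and 6.91 CPM without TMM in siANXA1 libraries, against 6.39, 7.81 and 8.95 CPM in siControl libraries. Over the alternative settings the log2 fold change of PARP9 ranged from -0.49 to -0.069. PARP14 (3:122680618-122730840, plus strand) read 25.1, 32.7 and 29.1 CPM in siANXA1 libraries, against 42.6, 39.8 and 29.2 CPM in siControl libraries, with siControl 3 among the siANXA1 values. Its log2 fold change was -0.36 ± 0.22 (edgeR adjusted p 0.68), and 0.0019 when the most abundant transcript stood for each gene.

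Among the other effectors 5 tested members were negative and 5 positive, with a median log2 fold change of -0.05. IFI35 (17:43006725-43014456, plus strand), which binds other interferon-induced proteins, read 6.35, 8.91 and 5.98 CPM in siANXA1 libraries, against 14.02, 13.3 and 7.34 CPM in siControl libraries, and overlapped. Its log2 fold change was -0.71 ± 0.33 (edgeR adjusted p 0.644), and 0.26 with the most abundant transcript alone. CMPK2, a mitochondrial nucleotide kinase (2:6840570-6866635, minus strand), read 7.43, 10.5 and 5.76 CPM in siANXA1 libraries, against 5.53, 6.22 and 6.62 CPM in siControl libraries, a log2 fold change of 0.37 ± 0.29 (edgeR adjusted p 0.747), and -0.39 with the most abundant transcript alone. CMPK2 overlaps RSAD2 on the opposite strand, so their reads are uncertain too. IFI27 did not overlap, at 0.966, 1.32 and 0.819 CPM in siANXA1 libraries and 1.41, 1.36 and 1.41 CPM in siControl libraries. SAMD9, an antiviral factor, had the highest log2 fold change, 0.73 ± 0.61 (edgeR adjusted p 0.756). Its values were 4.79, 1.64 and 3.99 CPM in siANXA1 libraries and 1.17, 1.34 and 3.803 CPM in siControl libraries. TRIM22, a ubiquitin ligase that restricts viruses, read 0.828, 0.228 and 0.328 CPM in siANXA1 libraries, against 2.32, 1.64 and 0.539 CPM in siControl libraries, a log2 fold change of -1.66 ± 0.70 (edgeR adjusted p 0.627). GBP2, a guanylate-binding GTPase, read 3.27, 3.84 and 2.73 CPM in siANXA1 libraries, against 6.03, 5.85 and 2.61 CPM in siControl libraries. In both, siControl 3 lay below at least 1 siANXA1 library.

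The last effectors had few counts and groups that overlapped in CPM. IFI6, a mitochondrial protein that limits cell death, read 2.05, 5.80 and 2.18 CPM in siANXA1 libraries and 3.54, 2.93 and 1.77 CPM in siControl libraries, with siANXA1 2 apart. RSAD2, or viperin, which makes a chain-ending nucleotide, read 0.966, 1.10 and 1.15 CPM in siANXA1 libraries and 1.01, 1.27 and 0.659 CPM in siControl libraries. In TPM the RSAD2 groups did not overlap, with siANXA1 libraries higher. They read 1.326, 1.625 and 1.2 TPM, against 0.677, 0.726 and 0.517 TPM in siControl libraries. The main transcript, ENST00000382040, held 79.4% of RSAD2 counts and overlapped between groups. It read 0.57, 0.70 and 0.84 CPM without TMM in siANXA1 libraries, against 0.93, 1.23 and 0.55 CPM in siControl libraries. The short ENST00000474872, of 769 bases, weighs more per count in TPM. It had 9, 4 and 9 counts in siANXA1 libraries, against 4, 2 and 2 in siControl libraries. The share of all genes without overlap in TPM was not computed. ISG20, an exonuclease, had a log2 fold change of -0.18 ± 0.50, and SAMD9L, the neighbour of SAMD9, one of 0.08 ± 0.58.

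The 13 members below the filter had 28 counts in siANXA1 libraries and 169 in siControl libraries. IFI44L, IFIT5, OAS2 and XAF1 had no count anywhere. IFIT2 had 0 counts in siANXA1 libraries, against 24, 10 and 2 in siControl libraries. With a floor of 3 counts put in for the siANXA1 group, it was 10.7-fold lower in siANXA1. HERC5, the ligase that attaches ISG15, had 0 counts in siANXA1 libraries, against 4, 6 and 0 in siControl libraries. On the same floor it was 2.96-fold lower in siANXA1. IFIT2 belongs to the family of IFIT1, which binds foreign RNA. OAS1, IFI44 and GBP1 had no count in siANXA1 libraries and 2 to 4 in all in siControl libraries. IFIT1 had 2, 3 and 6 counts in siANXA1 libraries, against 17, 23 and 5 in siControl libraries, a siControl to siANXA1 ratio per depth of 3.63 (95% exact interval 1.85 to 7.79). OASL had 0, 0 and 2 counts in siANXA1 libraries, against 29, 16 and 0 in siControl libraries, a ratio of 20 (5.22 to 170.0). OASL resembles the OAS enzymes and aids RIG-I. MX1, a dynamin-like GTPase that blocks viral replication, had 2 counts in siANXA1 libraries and 10 in siControl libraries, a ratio of 4.44 (0.946 to 41.7). Its relative MX2 had 13 counts in siANXA1 libraries and 15 in siControl libraries, a ratio of 1.02 (0.455 to 2.34). siControl 3 was nearer the siANXA1 libraries for IFIT1, IFIT2 and OASL. These intervals cover counting error only. The floors take the siControl counts as exact, so the fold values that use them are not lower limits.

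The libraries did not contribute alike. The median deviation of the tested members from their mean over libraries, in log2 CPM, was -0.19, -0.05 and -0.20 in siANXA1 libraries, against 0.34, 0.35 and 0.03 in siControl libraries. siControl 3 was the lowest siControl library in 17 of 28 tested members, and siANXA1 2 the highest siANXA1 library in 14. Summed over members, CPM was 702.7, 730.4 and 670.1 in siANXA1 libraries and 908.1, 987.7 and 841 in siControl libraries. siControl 3 also stood with siANXA1 1 and 3 on principal component 1 and in the amino acid stress sum. Without siControl 3, 25 of 31 tested members had groups that did not overlap, 22 below and 3 above in siANXA1. Of all genes tested there, 43.1% did not overlap and 23% lay below. Without siANXA1 2 there were 15 of 31, 14 below and 1 above, with 34.1% of all genes not overlapping and 16.9% below. In both fits 31 members passed the filter, against 28 with all libraries. Members that passed it through siControl alone had to lie below, so these counts are descriptions only.

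**Figure D4:**
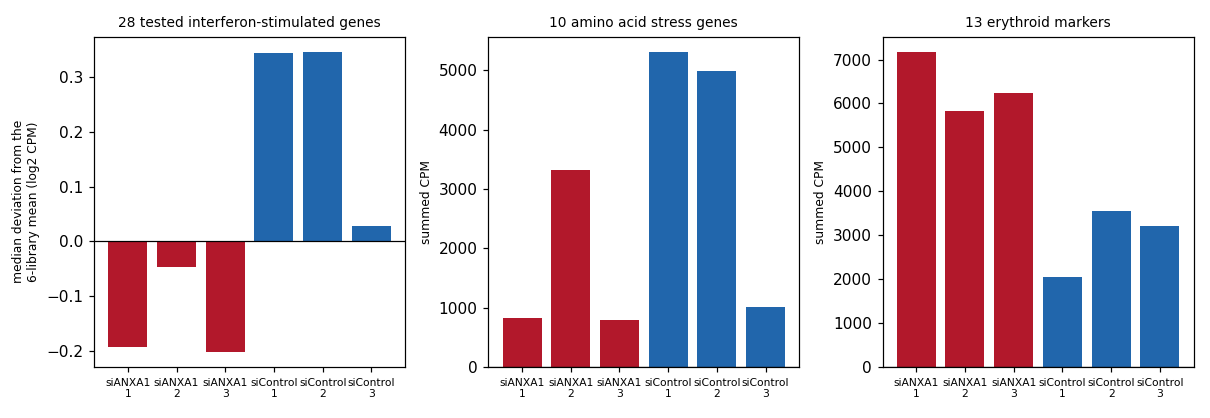
Per library, siANXA1 left of siControl: the median deviation of the 28 tested members in log2 CPM, and the summed CPM of 10 amino acid stress genes and of 13 erythroid markers. siControl 3 has a member median of 0.03, against 0.34 and 0.35 in siControl 1 and 2, and an amino acid stress sum of 1006 CPM, against 5303 and 4994.

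Transcripts of some members did not follow the gene. For IFITM1 the coding transcript ENST00000328221 read 95.5, 0 and 127 CPM without TMM in siANXA1 libraries, against 240.3, 317 and 238 CPM in siControl libraries. The other main coding transcript, ENST00000408968, read 132, 224 and 90.9 CPM in siANXA1 libraries, against 60.9, 71.6 and 90.02 CPM in siControl libraries. IFITM1 had a log2 fold change of -1.83 when its most abundant transcript stood for the gene, and how estimates divide overlapping transcripts is uncertain. For IRF1, ENST00000405885 read 0, 0 and 4.26 CPM in siANXA1 libraries and 11.7, 8.39 and 0 CPM in siControl libraries, while ENST00000245414 read 3.81, 6.23 and 1.05 CPM in siANXA1 libraries and 1.90, 2.72 and 6.73 CPM in siControl libraries. In STAT2, 58.9% of counts lay in ENST00000556539, annotated as a processed transcript, and coding transcripts held 34% in all. For IRF9 a retained intron transcript, ENST00000561415, held 38.4% of counts and coding transcripts 40.2%. BST2, IFITM3, DTX3L, ISG15 and EIF2AK2 each had a single coding transcript with 94.2% of counts or more.

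**Figure D5:**
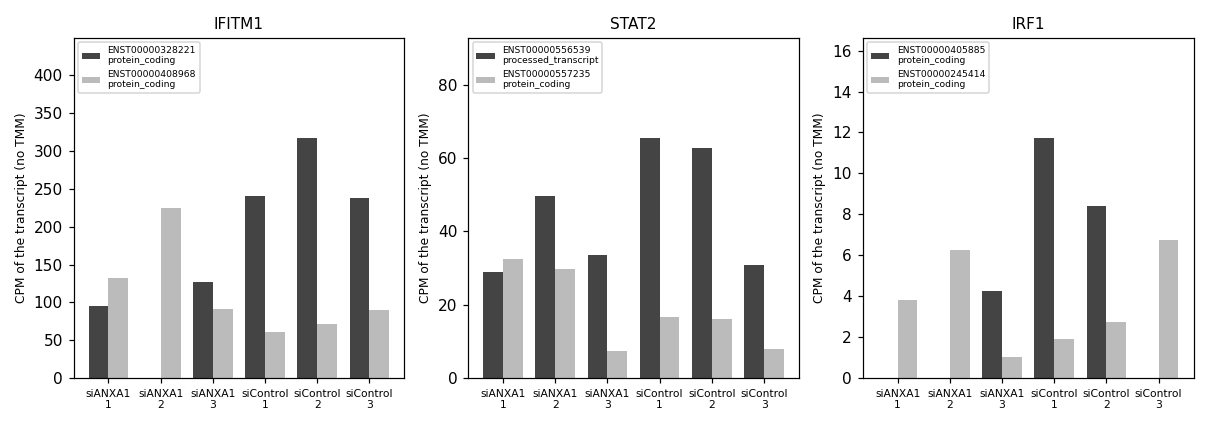
CPM without TMM of the main transcripts of IFITM1, STAT2 and IRF1 in each library, siANXA1 left of siControl. In IFITM1, ENST00000328221 is at 0 to 127 in siANXA1 and 238 to 317 in siControl, and ENST00000408968 is at 90.9 to 224 in siANXA1 and 60.9 to 90.02 in siControl.

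By position, 24 members lie in 9 clusters with gaps under 500 kb. On chromosome 11, IFITM2, IFITM1, IFITM3 and IRF7 were all tested and all negative, and on chromosome 3 PARP9, DTX3L and PARP14 likewise. On chromosome 2, CMPK2 and RSAD2 were both positive, and on chromosome 7 SAMD9 and SAMD9L were both positive. The 4 IFIT genes on chromosome 10 and the 3 OAS genes on chromosome 12 had 1 tested member each.

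Of the ligand genes, none of 17 type I and none of 5 type II and III interferon genes was tested, and IFNG had no count. Of 6 receptor genes 5 were tested, 4 negative, with a median log2 fold change of -0.31. IFNLR1, the untested one and the other chain of the type III interferon receptor beside IL10RB, had no count in any library. IFNAR1 read 71.7, 65.4 and 67.9 CPM in siANXA1 libraries, against 71.9, 76.4 and 16.9 CPM in siControl libraries, with siControl 3 apart, and its log2 fold change of 0.31 ± 0.52 was -0.12 without siControl 3. IFNGR2, a chain of the interferon gamma receptor, read 24.8, 37.2 and 26.5 CPM in siANXA1 libraries, against 34.5, 41.5 and 34.0 CPM in siControl libraries. IL10RB, a chain of the type III interferon receptor, read 27.5, 33.1 and 28.6 CPM in siANXA1 libraries, against 38.4, 36.1 and 36.0 CPM in siControl libraries, without overlap (-0.31 ± 0.17, edgeR adjusted p 0.658). JAK1 read 175, 198 and 186 CPM in siANXA1 libraries, against 195, 215 and 153 CPM in siControl libraries, and JAK2 read 36.2, 58.3 and 40.9 CPM in siANXA1 libraries, against 26.1, 25.5 and 55.4 CPM in siControl libraries. The 10 brakes on signalling outside the members had 3 negative and 7 positive. PTPN11, the phosphatase SHP2, read 506.5, 463 and 520.0 CPM in siANXA1 libraries, against 363, 387 and 477 CPM in siControl libraries, and CISH, a STAT5 target that damps cytokine signals, read 85.7, 184 and 64.4 CPM in siANXA1 libraries and 182, 172 and 71.7 CPM in siControl libraries. PTPN6, the phosphatase SHP1, read 1.89, 3.38 and 2.27 CPM in siANXA1 libraries, against 5.00, 5.21 and 3.06 CPM in siControl libraries. None of these passed the edgeR threshold.

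Of 21 sensors and adaptors outside the members 16 were tested, 13 negative and 3 positive, with 2 lower at an unadjusted edgeR p under 0.05. Among all tested genes 49.5% were negative and 4.52% lower at that p. TMEM173, which encodes STING, the adaptor for cytosolic DNA (5:139475534-139482935, minus strand), read 35.2, 29.9 and 29.9 CPM in siANXA1 libraries, against 71.5, 64.7 and 48.3 CPM in siControl libraries. The groups did not overlap, and the log2 fold change of -0.96 ± 0.20 had an adjusted p of 0.574 in edgeR and 0.00726 in DESeq2. TRIM25, the ligase that activates RIG-I, read 119, 109.5 and 104 CPM in siANXA1 libraries, against 194, 172 and 118 CPM in siControl libraries, and MAVS, the adaptor of RIG-I and MDA5, read 66.6, 122 and 76.9 CPM in siANXA1 libraries, against 135, 119 and 120.0 CPM in siControl libraries. Neither passed in edgeR (adjusted p 0.627 and 0.645). Of the ISG15 machinery outside the members, UBA7, its activating enzyme, read 0.828, 0.639 and 0.737 CPM in siANXA1 libraries, against 3.35, 3.77 and 1.17 CPM in siControl libraries (DESeq2 adjusted p 0.0369, edgeR adjusted p 0.605). UBE2L6, its conjugating enzyme, read 9.57, 13.5 and 7.81 CPM in siANXA1 libraries, against 20.9, 20.7 and 8.60 CPM in siControl libraries. HERC6, a relative of HERC5, had 2, 2 and 9 counts in siANXA1 libraries, against 12, 22 and 10 counts in siControl libraries. Its log2 fold change of -1.53 ± 0.71 rests on those few counts. HERC6 passed the filter only through the siControl libraries, so it had to lie below.

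Of 65 further interferon-stimulated genes, 53 were tested, 41 negative and 12 positive, with a median log2 fold change of -0.25, 8 below and 1 above without overlap. Over all tested genes 49.5% were negative, and 7.24% lay below and 7.41% above without overlap. RNF213, an ISG15 sensor and ubiquitin ligase, read 147, 233 and 156 CPM in siANXA1 libraries, against 362, 373 and 194 CPM in siControl libraries (-0.79 ± 0.31, edgeR adjusted p 0.627). LGALS3BP, a secreted glycoprotein, read 1.13, 0.822 and 1.37 CPM in siANXA1 libraries, against 7.44, 5.53 and 1.59 CPM in siControl libraries (-2.13 ± 0.59, DESeq2 adjusted p 0.0376, edgeR adjusted p 0.605). ADAR, the RNA editor, read 314, 279 and 322 CPM in siANXA1 libraries and 317, 224 and 351 CPM in siControl libraries. Over all 124 pathway genes outside the members, 84 were tested, 59 negative and 25 positive, with a median of -0.18. edgeR called none of the 84, with 8 lower and 1 higher at an unadjusted p under 0.05, and DESeq2 called 3 lower (TMEM173, UBA7 and LGALS3BP). The shares of all tested genes were 49.5% negative, 4.52% lower and 3.4% higher at an unadjusted p under 0.05, and 0.775% called lower by DESeq2.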

How the data were processed

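The authors deposited estimated counts per transcript, as whole numbers and not normalized. They came in an annotated and a plain table, with all 1335690 values equal. That they are estimated counts was read from the values, with aligner, counter and strandedness not stated by the labels. The mouse build mm10 is named per the submitters' processing notes, but all 306 member transcripts matched GENCODE release 29 on GRCh38 in chromosome, start and end. The 16014 rows without a gene held 16.9% to 17.7% of each library's counts and were left out.

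Counts were summed per gene and tested in R 4.3.3 by the edgeR package, version 4.0.16 (TMM scaling, filterByExpr, robust glmQLFit, glmQLFTest, group as the only term), with Benjamini-Hochberg adjustment over all 17947 genes tested and a threshold of 0.05. DESeq2 1.42.0, limma 3.58.1 (voom), other scalings, filters, the replicate block and leaving out each library were alternatives. All tests were two-sided, and the edgeR steps were checked on simulated data. CPM values are counts relative to library size with TMM scaling. TPM used the transcript lengths in the deposited table. A count of 3, the floor, was worth 0.068 to 0.141 CPM. Promoter motifs were searched in RefSeq windows with Python 3.11.15. Values per library were given for members with a mean of 5 CPM or more, past a threshold or without overlap, and for up to 4 genes of each pathway list, those highest in CPM or lowest in p; other members named with values were chosen after their values were seen. The members and lists were chosen with earlier results of these data known. Results on some further genes are not reported here.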

Additional observations from a re-analysis of the deposited data

How the results depend on the processing

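With edgeR 2 genes were called in all. The count was 258 with DESeq2, 1 with the most abundant transcript per gene, and 5 with the side of principal component 1 as a covariate, a setting chosen after seeing the data. It was 0 to 7 when 1 library was left out, 7 without siControl 3. Members called went to 1 with DESeq2 and pathway genes outside the members to 3, and both stayed at 0 with edgeR when 1 library was left out. The members' median log2 fold change, -0.43, was -0.63 with no filter, -0.57 to -0.41 with 1 library left out and -0.40 with the covariate. Members without overlap were 9 of 28 tested (14.6% of all genes), 5 of the 14 tested with the strict filter (14.8% of all genes), and 9 to 25 with 1 library left out. They were 8 of 28 with upper quartile scaling (14.4%) and 7 of 28 with library size only (14.5%). With the most abundant transcript they were 7 of 27 (13.9%), and with no filter 11 of 37 (10.3%). The count was 15 of 31 without siANXA1 2 (34.1% of all genes) and 25 of 31 without siControl 3 (43.1%). Members that passed the filter through siControl alone had to lie below in these counts too. The cause was not tested.

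Nothing in the labels pairs the replicate numbers. Same-numbered deviations correlated at -0.11, 0.26 and 0.26, with 1 pair negative. siANXA1 2 and siANXA1 3 correlated best with the siControl library of their own number and siANXA1 1 with siControl 3. The replicate block gave 0 genes called and a member median of -0.47. It reversed JAK1 to 0.0028.

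No reversed value was a call. ADAR was -0.015 with upper quartile scaling and -0.048 with the covariate, and -0.14 to 0.17 with 1 library left out. JAK1 was 0.10 with the covariate and -0.14 to 0.089 with 1 library left out. EIF2AK2 ranged over -0.043 to 0.22 and IFNAR1 over -0.12 to 0.61 in the same way. With the covariate, STAT2 was 0.083 and CISH 0.060. With the most abundant transcript, IFI35 was 0.26, PARP14 0.0019 and CMPK2 -0.39. In all, 542 of 567 values for single genes kept their direction and side of the threshold, 16 reversed and 9 passed the threshold anew. ANXA1 passed with DESeq2, limma-voom (adjusted p 0.0206), the strict filter, the covariate and without siControl 3.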
